A study of Mus musculus with 6 samples.

Results

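The genes described here are the 10 that encode the chains of mouse MHC class II, the chains that load it and its transactivator: H2-Aa, H2-Ab1, H2-Eb1, H2-DMa, H2-DMb1, H2-DMb2, H2-Oa, H2-Ob, Cd74 and Ciita. They were taken by symbol from a table of 55471 gene IDs, and each symbol matched 1 ID. RNA was sequenced from GMLPs, bone marrow progenitors gated as lineage-negative, Kit and Sca1 positive, CD48 positive and CD150 negative, from 2 kinds of mice. ME mice carried MLL-ENL, a leukaemia fusion of the MLL and ENL genes, and L28BME mice carried LIN28B together with MLL-ENL, so every library had the fusion. Sorted cells of either genotype spent 3 days in culture with doxycycline (DOX) before RNA was isolated, and each group had 3 libraries. The labels do not say which transgene DOX controls, what drives it, how old the mice were or whether replicates came from separate animals, so the spread behind each p-value is that between libraries and may be technical. Values are TPM, an abundance scaled by transcript length and library total. The sequencing depth is therefore unknown and no counting interval is given.

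MHC class II molecules carry peptides from endosomes to the cell surface, where CD4 T cells read them. Each is a pair of an alpha and a beta chain: H2-Aa with H2-Ab1 forms I-A, and H2-Eb1 is the beta chain of I-E. The invariant chain, encoded by Cd74, fills the groove of new pairs. H2-DM, made of H2-DMa with a DM beta chain, exchanges the invariant chain remnant for other peptides, and H2-DO, made of H2-Oa and H2-Ob, holds H2-DM back. Ciita encodes the transactivator CIITA, a coactivator that binds no DNA itself and acts through a complex of RFX, CREB and NF-Y proteins on the X and Y boxes of class II promoters. In blood, class II is best known from dendritic cells, B cells and macrophages, and progenitors can carry it at lower levels.

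The promoters of 3 members whose levels differed between the groups are shown first, since this complex acts at such boxes and the members' matches differ. RefSeq promoter windows for GRCm38.p6 ran from 250 bases before to 50 bases after a start. They were found for 7 of the 10 members (8 windows, 2 of them for H2-DMa), and none for H2-Ab1, Cd74 or Ciita. Each sequence below runs 5′ to 3′ on the gene's own strand, from 125 to 31 bases before the start. Capitals mark matches to the letters CCAAT (the Y box core, printed as ATTGG where it lies on the other strand), AGNNACNGA (an X box pattern) and AACNNATGA (a second X box pattern, written after the sequences had been seen, which overlaps the first).
H2-Aa (chr17:34287854-34287948, minus strand): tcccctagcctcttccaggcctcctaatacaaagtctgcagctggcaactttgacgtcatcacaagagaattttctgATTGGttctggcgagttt
H2-Eb1 (chr17:34305742-34305836, plus strand): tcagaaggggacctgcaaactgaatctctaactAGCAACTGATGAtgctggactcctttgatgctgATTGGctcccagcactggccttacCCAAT
H2-Ob (chr17:34238780-34238874, plus strand): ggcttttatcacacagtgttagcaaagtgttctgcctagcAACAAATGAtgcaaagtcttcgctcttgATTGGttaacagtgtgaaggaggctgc

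In H2-Aa only the Y box core matched, and neither X box pattern did, which says only that these letters are not in its window. The inverted Y box core stood with its first base between 90 and 40 bases before the start in 6 of the 7 members with a window, against 6.75% of all 32851 windows. These bounds were chosen after the matches were seen. Those 6 members were H2-Aa, H2-Eb1, H2-DMb1, H2-DMb2, H2-Oa and H2-Ob. Searched on both strands over whole windows, CCAAT was found in 37.4% of all windows, AGNNACNGA in 17.7% and AACNNATGA in 2.85%. Among the members, AGNNACNGA matched in H2-DMb1, H2-Eb1, H2-Oa and H2-Ob, in H2-Ob only after the start and on the other strand. The second X box pattern preceded the inverted Y box within 50 bases in H2-Eb1, H2-DMb1, H2-DMb2 and H2-Ob, at 30, 31, 31 and 28 bases from first letter to first letter. That order, at any distance of up to 50 bases, was present in 0.0913% of all windows, with those of these members included. Because the second pattern was written from sequences already seen, matches in members were built in. The share is therefore no test of a layout common to them. The members with this layout did not move alike, as the values below show: H2-Eb1 fell, H2-Ob rose, and H2-DMb1 and H2-DMb2 were not called. Outside the members, 25 genes had the layout and 3 of them were tested. Of these, 1 was called (Hnrnph2, log2 fold change 0.16), against 14.9% of all genes tested.

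Class II genes moved in both directions. The 3 classical chains H2-Aa, H2-Ab1 and H2-Eb1 and the invariant chain Cd74 were lower in L28BME, and H2-Ob, the DO beta chain, was higher. H2-DMa, H2-DMb1, H2-DMb2 and H2-Oa were tested and not called, and Ciita lay under the filter on low values. A gene was tested if it reached 1 TPM in at least 3 of the 6 libraries, which 9 of the 10 members did, and called at a Benjamini-Hochberg adjusted p under 0.05 over all 13348 genes tested (limma on log2(TPM + 1)). Thus 4 members were called lower, against 6.6% of all genes tested, and 1 was called higher, against 8.28%. In either direction these were 5 members, against 14.9%. For 7 of the 9 tested members the groups were fully separated, with no overlap of values (36.7% of all genes tested), and so were they for Ciita. Without any 1 library, 1078 to 1264 genes were called in place of 1986. The median log2 fold change was -0.51 over the 9 tested members and 0.00 over all genes tested. In bulk RNA, fewer cells with class II RNA and less of it per cell cannot be told apart.

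**Figure D1:**
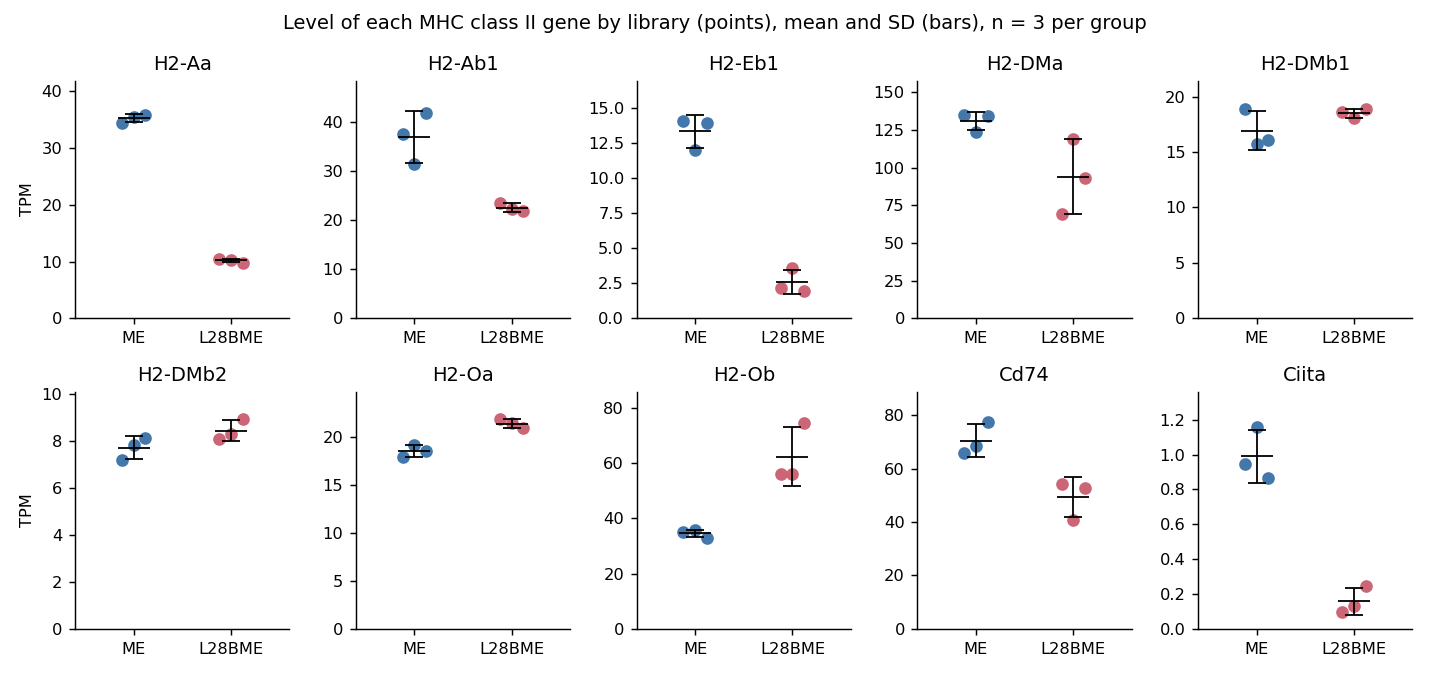
Level in TPM (vertical axes, from 0) of each of the 10 genes in each library, with 3 ME libraries in blue and 3 L28BME libraries in red; black bars give the mean and SD. The L28BME libraries lie below all ME libraries for H2-Aa, H2-Ab1, H2-Eb1, H2-DMa, Cd74 and Ciita and above them for H2-Oa and H2-Ob, and the groups overlap for H2-DMb1 and H2-DMb2.

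H2-Aa, the alpha chain of I-A, was at 34.5, 35.5 and 35.9 TPM in the ME libraries and at 10.5, 10.3 and 9.80 TPM in L28BME. The groups were far apart and the libraries of each lay close together. The mean fell from 35.3 ± 0.738 TPM to 10.2 ± 0.346 (SD, n = 3 per group here and below), which is 3.47-fold lower (log2 fold change -1.70, SE 0.053, limma adjusted p = 6.64e-05). H2-Ab1, its beta chain, was at 37.5, 31.5 and 41.9 TPM in ME and at 23.5, 22.2 and 21.8 TPM in L28BME. The ME libraries spread more widely than the L28BME libraries, and the groups did not overlap. H2-Ab1 fell 1.64-fold (log2 fold change -0.68, SE 0.11, limma adjusted p = 0.0106). H2-Eb1, the I-E beta chain, was at 14.1, 12.01 and 13.9 TPM in ME and at 2.19, 3.58 and 1.98 TPM in L28BME. Every L28BME value was far under the lowest ME value. H2-Eb1 fell 5.17-fold (log2 fold change -2.02, SE 0.18, limma adjusted p = 0.00158). Folds here are ratios of mean TPM, whereas log2 fold changes are of TPM + 1, which understates changes of low genes. With 0.1 or 5 added to the TPM in place of 1, the log2 fold change of H2-Eb1 was -2.37 or -1.28. Only 8 of the 13348 tested genes had a lower log2 fold change than H2-Eb1, 17 had a lower one than H2-Aa and 256 a lower one than H2-Ab1. These 3 genes kept their calls without any 1 of the 6 libraries (limma adjusted p at most 0.0424). Summed over the 3 chains, the level was 79.0 to 91.7 TPM in ME and 33.6 to 36.2 TPM in L28BME.

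The remaining class II chain models of the region gave little signal. H2-Ea-ps, the pseudogene at the I-E alpha chain locus of the reference strain, was listed at 0 in every library, so these values hold no RNA of an I-E alpha chain from it. H2-Eb2, a further beta chain gene, was at no more than 0.346 TPM in any library, and the pseudogene H2-Pa was listed at 0. None of the exonic bases of H2-Aa, H2-Ab1, H2-Eb1 or H2-Ob was shared with another gene model on either strand. The sequences of H2-Ab1, H2-Eb1 and H2-Ob shared no stretch of 50 bases with transcripts of another gene, and 0.514% of such stretches of H2-Aa did.

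Cd74 (ENSMUSG00000024610, chromosome 18, 60803848 to 60812652 of GRCm38), the invariant chain that escorts new class II pairs, was at 65.6, 68.3 and 77.4 TPM in ME and at 54.3, 40.8 and 52.9 TPM in L28BME. All L28BME libraries were lower, with L28BME replicate 2 the lowest. The ME mean of 70.4 ± 6.17 TPM fell to 49.3 ± 7.38 in L28BME (log2 fold change -0.51, SE 0.12, limma adjusted p = 0.0421). The call was narrow: leaving out any library but L28BME replicate 2 ended it (limma adjusted p = 0.0631 to 0.118), and so did a fit with no trend (adjusted p = 0.0587) and one with no filter (adjusted p = 0.0766).

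Ciita (ENSMUSG00000022504, chromosome 16, 10480059 to 10528418 of GRCm38), the transactivator, was listed at 0.943, 1.16 and 0.864 TPM in ME and at 0.0975, 0.129 and 0.247 TPM in L28BME. Every L28BME library was under every ME library, at levels where the TPM table gives no account of how many reads stand behind a value. The means were 0.989 ± 0.154 and 0.158 ± 0.0787 TPM, a ratio of 6.27 on the TPM scale. Because only 1 ME library reached 1 TPM, Ciita was not among the tested genes. In the fit with no filter it was called lower (log2 fold change -0.78 on the TPM + 1 scale, which understates changes of low genes, limma adjusted p = 0.00766). An exact permutation test on the 6 libraries alone gave p = 0.1, two-sided, the smallest that 3 against 3 allows. Of the exonic bases of Ciita, 3.45% are shared with Dexi on the opposite strand, a gene at 13.6 to 19.9 TPM. The library kit keeps strand; use of strand in quantification is unknown here.

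**Figure D2:**
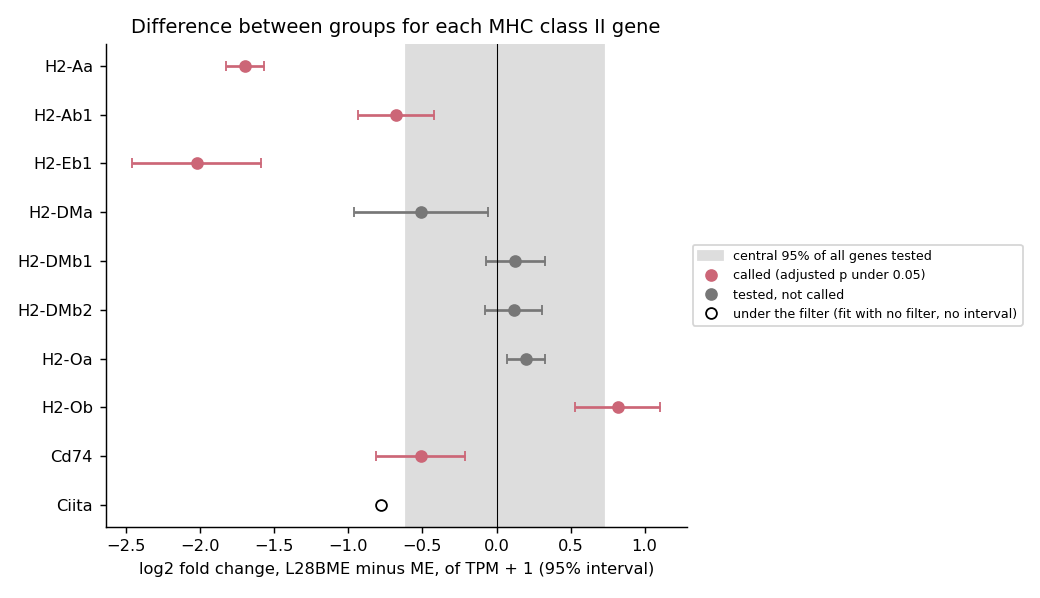
Log2 fold change of TPM + 1, L28BME minus ME (horizontal axis), for each gene, with its 95% interval; red points were called, grey points were tested and not called, and the open point for Ciita comes from the fit with no filter. The grey band holds the central 95% of all genes tested, from -0.61 to 0.72: H2-Aa, H2-Eb1 and H2-Ab1 lie below it and H2-Ob above it.

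The DM genes, which edit the peptides of class II, were not called. H2-DMa, the alpha chain, was at 135, 124 and 134 TPM in ME and at 69.5, 119 and 93.0 TPM in L28BME. The L28BME libraries were all lower but spread widely, and replicate 2 came close to the ME libraries. The means were 131 ± 6.16 and 93.9 ± 24.8 TPM (log2 fold change -0.51, 95% interval -0.96 to -0.06 before adjustment, limma adjusted p = 0.129). Without L28BME replicate 2, H2-DMa was called lower (limma adjusted p = 0.0376). On the opposite strand, Brd2 shares 360 exonic bases with H2-DMa, or 10.4% of them. Brd2 encodes a bromodomain protein, was at 162 to 222 TPM in ME and 162 to 251 TPM in L28BME, and its part in the H2-DMa values was not tested. H2-DMb1, a DM beta chain, was at 18.9, 15.7 and 16.1 TPM in ME and at 18.6, 18.1 and 18.9 TPM in L28BME. H2-DMb2, the other beta chain, was at 7.20, 7.83 and 8.15 TPM in ME and at 8.11, 8.31 and 8.94 TPM in L28BME. The groups overlapped for both beta chains. The log2 fold changes were 0.13 for H2-DMb1 (95% interval -0.07 to 0.33, limma adjusted p = 0.352) and 0.12 for H2-DMb2 (-0.08 to 0.31, adjusted p = 0.384), so a log2 rise of up to 0.33 lies within the interval of H2-DMb1. How reads were split between these paralogs is uncertain, since 22.7% of 50-base stretches of H2-DMb1 and 25.9% of those of H2-DMb2 occur in another gene, mostly in each other.

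The DO genes, whose product restrains DM, had higher values in every L28BME library than in any ME library, and H2-Ob was called. H2-Ob (ENSMUSG00000041538, chromosome 17, 34238903 to 34254414 of GRCm38), the beta chain, was at 34.9, 35.8 and 33.1 TPM in ME and at 56.1, 56.2 and 74.6 TPM in L28BME. Every L28BME library was above every ME library, and replicate 3 stood above the other two. From 34.6 ± 1.38 TPM the mean rose 1.80-fold to 62.3 ± 10.7 (log2 fold change 0.82, SE 0.12, limma adjusted p = 0.00801). The call held without any 1 library (adjusted p 0.00527 to 0.0351). H2-Oa, the alpha chain, was at 17.9, 19.1 and 18.5 TPM in ME and at 21.8, 21.4 and 20.9 TPM in L28BME. Its log2 fold change of 0.20 (95% interval 0.07 to 0.33) missed the threshold (limma adjusted p = 0.0552). It passed with a minimum of 5 TPM (adjusted p = 0.0478) and with no trend (adjusted p = 0.0470). BC051537 overlaps 22.8% of the exonic bases of H2-Oa on the opposite strand and was at no more than 0.246 TPM. Summed, the DO chains were at 51.6 to 54.9 TPM in ME and 77.6 to 95.5 TPM in L28BME, and the DM chains at 147 to 161 and 96.2 to 145 TPM.

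The order of the levels differed between the groups. In ME, H2-DMa was followed by Cd74, then by H2-Ab1, H2-Aa and H2-Ob, whose ranges overlapped from one to the next, then by H2-Oa and H2-DMb1, which overlapped, and by H2-Eb1, H2-DMb2 and Ciita. In L28BME, H2-Ob stood second, overlapping H2-DMa through replicate 3 only, and above Cd74, H2-Ab1, H2-Oa and H2-DMb1. H2-Aa came after these, followed by H2-DMb2, H2-Eb1 and Ciita. H2-Aa was above 61.1% of tested genes by mean TPM in ME and above 32.2% in L28BME, and H2-Ob above 60.6% and 75.4%.

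Ratios between members within a library describe how their levels stood to each other. Of 6 ratios, 5 did not overlap between the groups. Each of these had an exact permutation p = 0.1 (two-sided, adjusted p = 0.12 over the 6). That is the smallest that 3 against 3 allows, so none could pass. All 6 contain H2-Aa or H2-DMa and are not independent, and the share of other gene pairs without overlap was not computed. The TPM ratio of H2-Aa to H2-Ab1, the chains of I-A, was 0.858 to 1.13 in ME and 0.445 to 0.462 in L28BME. Cd74 stood at 1.90 to 2.16 times H2-Aa in ME and at 3.97 to 5.40 times in L28BME. H2-DMa was 3.49 to 3.90 times H2-Aa in ME and 6.64 to 11.6 times in L28BME. Against its beta chain H2-DMb1, H2-DMa was at 7.11 to 8.34 times in ME and 3.74 to 6.58 times in L28BME. The ratio of H2-Oa to H2-DMa was 0.133 to 0.154 in ME and 0.180 to 0.314 in L28BME. The ratio of H2-Eb1 to H2-Aa overlapped between the groups (exact permutation p = 0.3), at 0.338 to 0.408 and 0.202 to 0.348. Ratios with H2-Ob were added after its values had been seen: H2-Ob to H2-Oa was 1.79 to 1.95 in ME and 2.57 to 3.57 in L28BME, and H2-Ob to H2-Aa was 0.921 to 1.01 and 5.36 to 7.61.

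**Figure D3:**
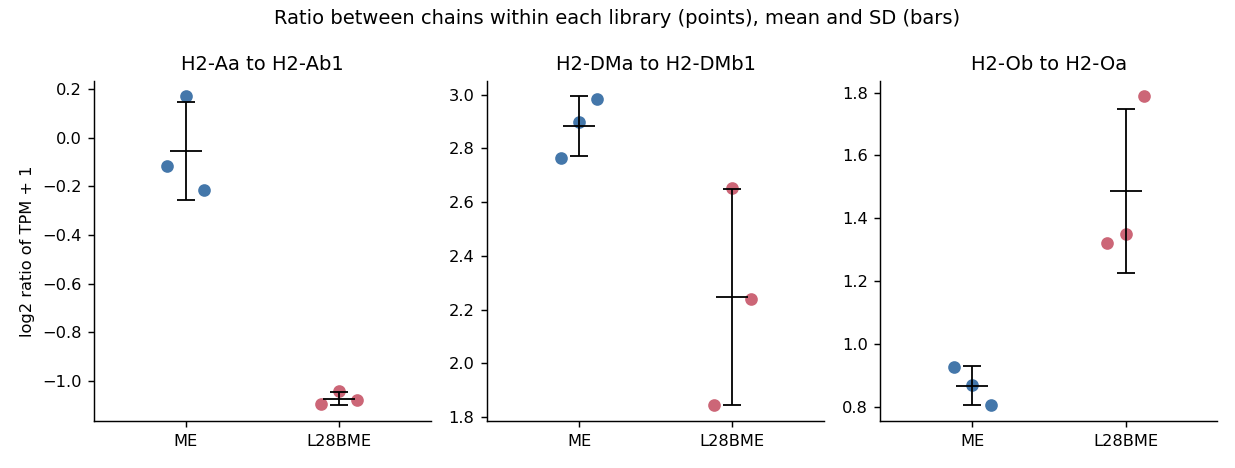
Log2 ratio of TPM + 1 between partner chains within each library (vertical axes, which do not start at 0), for ME in blue and L28BME in red, with mean and SD as bars. The groups do not overlap for H2-Aa to H2-Ab1 (lower in L28BME), H2-DMa to H2-DMb1 (lower) or H2-Ob to H2-Oa (higher).

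On chromosome 17, 8 members lie within 224 kb, from 34092340 to 34316674 of GRCm38, from H2-Oa through H2-DMa, H2-DMb2, H2-DMb1, H2-Ob, H2-Ab1 and H2-Aa to H2-Eb1. H2-Ob, which rose, and H2-Ab1, which fell, are neighbours on the same strand, 3.27 kb apart. The classical chains lie together at the far end of the stretch. Between the outermost members stood 12 other gene models, of which 5 were tested. Of these, 1 was called lower (6.6% of all genes tested) and none higher (8.28%), and their median log2 fold change was -0.03. The called one was Tap1, a subunit of the peptide transporter of MHC class I, at 66.0, 67.3 and 69.6 TPM in ME and 45.3, 57.4 and 49.8 TPM in L28BME (log2 fold change -0.41, limma adjusted p = 0.0296). Its call held only without L28BME replicate 2 (0.0125 to 0.0922 when each library was left out). Tap2, Psmb8, Psmb9 and Brd2, the other tested neighbours, had log2 fold changes of -0.10, -0.03, -0.03 and 0.00 and were not called.

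**Figure D4:**
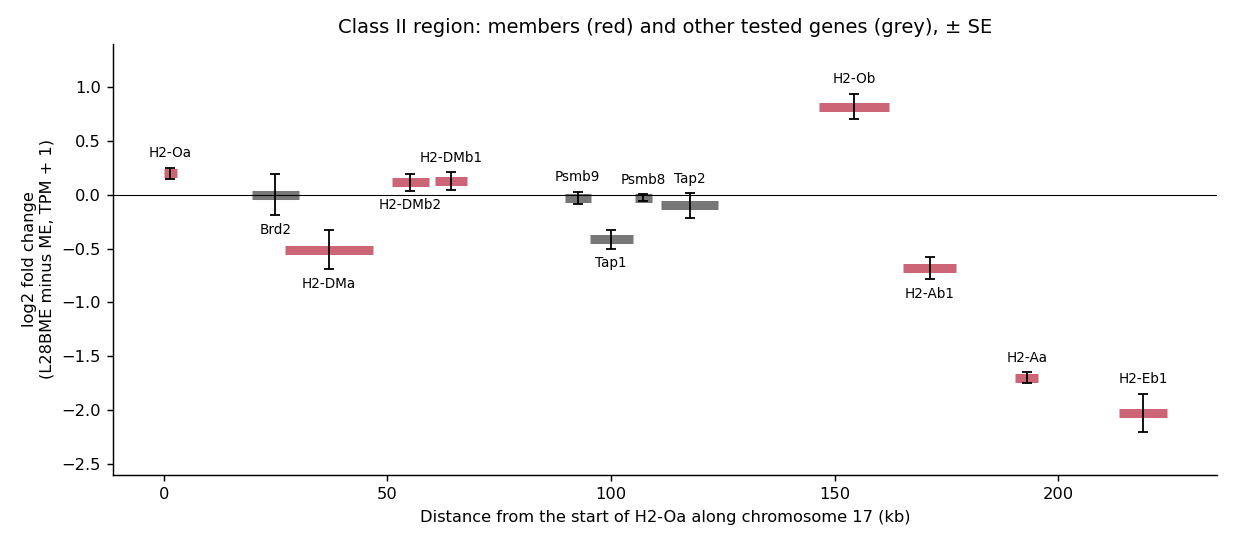
Log2 fold change of TPM + 1, L28BME minus ME (vertical axis), of the tested genes of the class II region against their distance in kb from the start of H2-Oa; horizontal bars span each gene, black bars are ± SE, red marks the class II genes and grey the other genes. H2-Ab1, H2-Aa and H2-Eb1 lie below -0.6 at the right end, H2-Ob at 0.82 beside them, and the grey genes between -0.41 and 0.00.

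Genes listed for the class II promoter complex, a list that also holds Nlrc5, were called at about the share of all genes. Of 14 listed for the class II promoter complex, 13 were tested, 2 were lower and 0 higher, against 14.9% of all genes tested in either direction, with a median log2 fold change of -0.06. Creb1, a CRE-binding factor that can occupy the X2 box, was at 35.4, 37.9 and 35.3 TPM in ME and at 16.4, 20.4 and 15.2 TPM in L28BME. Its groups were well separated (log2 fold change -1.03, SE 0.11, limma adjusted p = 0.00304). Nlrc5, a relative of Ciita that serves class I promoters, had a mean of 16.6 ± 0.890 TPM in ME and 10.8 ± 0.945 in L28BME (a fall, log2 fold change -0.58, adjusted p = 0.00783). Both kept their calls without any 1 library. The subunits of RFX, which binds the X box, had log2 fold changes of 0.02 for Rfx5, -0.11 for Rfxap and -0.33 for Rfxank, none called (adjusted p = 0.883, 0.263 and 0.0665). Of NF-Y, which binds the Y box, Nfyb and Nfyc were not called (0.16 and 0.20) and Nfya was at no more than 1.98 TPM and not tested.

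Genes known to act on Ciita were called in both directions. Of 18 listed, 13 were tested, with 2 higher (8.28% of all genes tested), 2 lower (6.6%) and a median log2 fold change of 0.14. Ifngr2, a chain of the interferon gamma receptor, fell from 25.3 to 21.0 TPM, and the kinase gene Jak1 fell from 110 to 98.2 TPM. Jak2, its partner kinase, rose from 55.01 to 66.7 TPM, and Socs3, an inhibitor of cytokine signalling, rose from 20.9 to 25.3 TPM. The calls of Ifngr2 and Socs3 were lost in all 6 fits without 1 library, and those of Jak1 and Jak2 in 5 of 6 (limma adjusted p up to 0.105). The transcription factors Irf1, Irf8 and Spi1 (PU.1), which bind Ciita promoters, were not called, at log2 fold changes of 0.18, 0.44 and 0.05 (adjusted p = 0.729, 0.237 and 0.473). Genes induced by interferon gamma were called in 3 of 13 tested cases out of 17 listed, against 14.9% of all genes tested, with 1 higher (Gbp7, 21.0 to 26.0 TPM) and 2 lower (Tap1 and Cxcl10, the latter 1.59 to 0.494 TPM), and a median of 0.09. Each of these 3 calls held in only 1 of the 6 fits without a library, and Cxcl10 passed the filter only through ME, where it was high.

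Among genes that cut and carry antigen for class II, 6 of the 7 called were higher in L28BME. Over all genes tested, 8.28% were called higher and 6.6% lower. Of 16 listed, 15 were tested, and the median log2 fold change was 0.01. Ctss, cathepsin S, which trims the invariant chain, rose to 55.99 ± 1.37 TPM from 45.6 ± 1.75 in ME (log2 fold change 0.29, limma adjusted p = 0.0104). Cd82, a tetraspanin of the loading compartment, rose to 53.6 ± 1.94 TPM from 40.5 ± 1.14 in ME (log2 fold change 0.39, adjusted p = 0.00396), and Cd63, another tetraspanin, fell from 411 to 343 TPM (-0.26, adjusted p = 0.00793). These 3 calls held without any 1 library. The protease genes Ctsl, Ctsz, Ctsh and Lgmn were also called higher, at log2 fold changes of 0.25, 0.20, 0.67 and 0.53, and each kept its call in 2 of 6 such fits. Among 9 costimulatory and co-receptor genes, 5 were tested and 2 rose, against 8.28% of all genes tested. Cd86, a ligand of CD28, was at 1.17, 1.27 and 0.583 TPM in ME and at 3.28, 4.17 and 3.31 TPM in L28BME (log2 fold change 1.20, SE 0.18, limma adjusted p = 0.00837). All L28BME libraries were higher, and Cd86 passed the filter only through L28BME, where it was high. The tetraspanin gene Cd9 rose from 143 ± 6.69 to 193 ± 2.61 TPM. Cd80 and Cd40 were at no more than 0.576 and 0.282 TPM. Of the ubiquitin ligases of class II, March8 was not called (-0.17, adjusted p = 0.143) and March1 was at no more than 0.103 TPM.

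**Figure D5:**
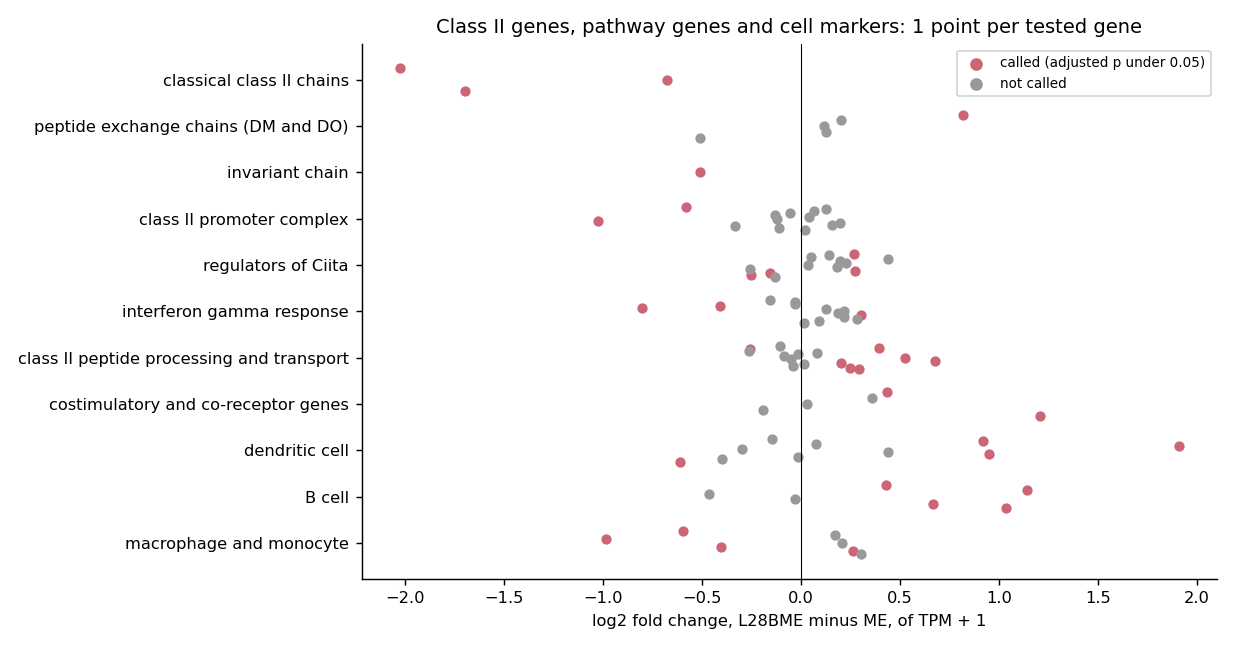
Log2 fold change of TPM + 1, L28BME minus ME (horizontal axis), with 1 point per tested gene and 1 line per gene list drawn. Red points were called. The lists of T and innate lymphoid genes, stromal and endothelial genes, sort markers and ubiquitin ligases are not drawn. The classical chains and the invariant chain lie left of 0, while most genes of the promoter complex, of the regulators of Ciita and of the interferon gamma response lie within 0.4 of 0 on either side.

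Markers of the mature cells that carry class II were mixed. Of all genes tested, 8.28% were called higher and 6.6% lower. Median log2 fold changes were 0.03 for the dendritic cell list, 0.55 for the B cell list and 0.17 for the macrophage and monocyte list. Of 15 dendritic cell genes, 5 were under 1 TPM in every library, among them Xcr1, Clec9a, Zbtb46 and Cd209a, the last listed at 0 throughout. Their summed level was 369 to 389 TPM in ME and 478 to 526 TPM in L28BME, and of 10 tested 3 were higher (Flt3, Ccr7 and Cd7) and 1 lower. Flt3, which progenitors also carry, was the largest part of the difference in that sum, with means of 96.6 (ME) and 187 TPM (L28BME). The lower one was Itgax (CD11c), at 4.45, 4.08 and 5.40 TPM in ME and 2.77, 2.34 and 2.93 TPM in L28BME (log2 fold change -0.61, limma adjusted p = 0.0257), with a call that held only without ME replicate 2 when libraries were left out. Of 12 B cell genes, 6 were under 1 TPM throughout, among them Ms4a1 and Pax5, which in mature B cells go with class II. Their sum was 377 to 387 TPM in ME and 535 to 541 TPM in L28BME, and of 6 tested 4 were higher, with Cd79b rising from 27.2 to 56.9 TPM, and 0 lower. Ighm made up most of that sum and of its difference, with means of 348 (ME) and 469 TPM (L28BME), and the call of Ebf1, 1 of the 4, was lost without any 1 library. Of 12 macrophage and monocyte genes, 5 were under 1 TPM throughout, among them Mertk and C1qa, the last listed at 0. Their sum was 402 to 427 TPM in ME and 291 to 303 TPM in L28BME. Ly6c2 made up most of that sum and of its difference, with means of 289 (ME) and 190 TPM (L28BME). Of 7 tested, 3 were lower (Ly6c2, Ccr2 and Cd68) and 1 higher (Csf1r, lost without any 1 library). Ccr2, a receptor of monocytes, was at 20.2, 20.7 and 24.4 TPM in ME and 10.4, 11.3 and 9.70 TPM in L28BME (log2 fold change -0.99, adjusted p = 0.00223). Ly6c2, Ccr2 and Cd68 thus moved in the direction of the classical chains. All other tested genes of that list, Csf1r among them, had positive log2 fold changes. The part of any of these genes in the class II values was not tested. Of 10 T and innate lymphoid genes 8 were under 1 TPM throughout, and of 6 stromal and endothelial genes 4 were. Of the tested ones Thy1 and Pecam1 were called lower and Il7r higher, which passed the filter only through L28BME, where it was high, and kept its call in 2 of 6 fits without 1 library. Thy1 and Pecam1, which progenitors can also carry, made up most of the summed levels, which were 142 to 151 and 163 to 164 TPM in ME and 81.3 to 97.2 and 111 to 116 TPM in L28BME.

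The sort markers and the contrast were read from the same libraries. Kit was at 94.1 ± 15.7 and 79.2 ± 8.10 TPM and Cd48 fell from 297 to 228 TPM, while Slamf1, which encodes CD150, was at no more than 0.706 TPM. Ly6a, which encodes Sca1, was lower in L28BME (10.6 ± 1.09 to 2.07 ± 0.970 TPM), and whether it bears on the class II values was not tested. Lin28b was listed at 0 in each ME library and at 11.2 to 11.9 TPM in L28BME. Mitochondrially encoded RNA was 4.12 to 4.35% of the TPM in ME and 4.49 to 4.85% in L28BME.

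The tested genes with profiles nearest to that of H2-Aa over the 6 libraries, by Euclidean distance between mean-centred log2(TPM + 1) values, were Cpne2, Bpifc, Cited4, Chst13 and Tctex1d1, at distances of 0.198 to 0.277. None is a class II gene, and Tctex1d1 passed the filter only through ME, where it was high. Their log2 fold changes were -1.85 to -1.55, near the -1.70 of H2-Aa, which a distance over 2 groups largely restates. Cpne2, the nearest, encodes a calcium-dependent membrane-binding protein and was at 61.8, 57.2 and 56.1 TPM in ME and 18.2, 19.3 and 17.9 TPM in L28BME.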

How the data were processed

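RNA of 6 libraries, 3 ME and 3 L28BME, was analysed. The deposited values are TPM per gene and library, made by the authors; per the submitters' processing notes, bcl2fastq, HISAT2, StringTie and DESeq2 were used with GRCm38. Tool versions, annotation and strand use: not given in the sources used here. TPM summed to 999919 to 999996 per library, and depth is unknown. Entries were summed by gene ID.

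Genes with at least 1 TPM in at least 3 libraries were fitted on the log2(TPM + 1) scale with limma 3.58.1 (R 4.3.3, intensity trend, two-sided), and adjusted by Benjamini-Hochberg over all genes. The procedure was tested on simulated data. Ratios were compared by exact permutation in Python 3.11.15 (scipy 1.17.1). Positions and overlaps come from GENCODE for GRCm38, promoters from RefSeq GRCm38.p6. All 10 members were named; of other lists, called members and up to 4 with the smallest p. The members and lists were chosen with earlier results of these data known. Alternatives were pseudocounts, filters, scalings, limma options, summed gene models that overlap on the same strand, a replicate block and leaving out libraries, which kept the same genes tested. Overlaps on opposite strands, as of H2-DMa, H2-Oa and Ciita, were not summed.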

Additional observations from a re-analysis of the deposited data

How the results depend on the processing

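H2-Aa, H2-Ab1, H2-Eb1 and H2-Ob kept direction and call under all 16 alternatives, Cd74 kept its call under 8 of 16, and H2-DMb1 and H2-DMb2 were called under none. Between 4 and 6 members were called without any 1 library, 5 with no filter, where Ciita was called and Cd74 was not, and 6 with a minimum of 5 TPM. Genes called over the whole table numbered 1986, and 1078 to 1264 without any 1 library, where fewer libraries were fitted. Replicate numbers are not stated to pair libraries, and same-numbered libraries did not deviate together (correlations of -0.0743 to -0.032). With the replicate block 948 genes were called, and 4 members: Cd74 was lost (adjusted p = 0.0686). The difference in the log2 ratio of H2-Eb1 to H2-Aa, -0.33, turned to 0.13 with a pseudocount of 5, which weighs on low values; the other 5 ratios kept their direction under all 8 alternatives run. Depth behind single values is unknown.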
